A study of Bos taurus with 31 samples.

Results

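Transcripts of the cytochrome P450 enzymes outside the CYP1 family were followed in liver puncture biopsies of 31 lactating German Holstein cows, taken in week 16 of a feeding trial. A gene was taken as a member when its symbol in the deposited count table began with CYP and a digit, and CYP1A1, CYP1A2, CYP1B1, CYP7A1, CYP7B1, CYP8B1, CYP27A1 and CYP26A1 were left out. This gave 35 members among 24616 genes. Of these, 26 had at least 20 reads summed over all cows and could be tested, and 19 had a mean of at least 50 normalized counts.

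Cows of the GLY groups received a total mixed ration containing peas, wheat grain and straw with residues of a glyphosate (GLY) herbicide, whereas cows of the CON groups received a control ration. Both treatments were split by a high (HC, 60% of dry matter) or low (LC, 30% of dry matter) concentrate feed proportion (CFP). Every ration also held maize silage, grass silage and straw, with lower proportions of both silages in HC than in LC. According to the study, CON cows were also exposed to small amounts of GLY. Exposure per body weight was higher in GLYHC than in GLYLC. The groups CONHC, CONLC and GLYHC had 8 cows each and GLYLC had 7, with 1 biopsy per cow. The count table summed to 11675775 reads in the shallowest and to 36675542 in the deepest library.

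P450 enzymes are heme proteins that insert oxygen into their substrates. Members of the CYP2 and CYP3 families sit in the endoplasmic reticulum of hepatocytes and oxidize drugs, plant compounds and other foreign chemicals. Many of their genes are induced through the nuclear receptors CAR (NR1I3) and PXR (NR1I2). CYP4 enzymes hydroxylate the end of fatty acid and eicosanoid chains, and other members act on sterols, steroid hormones, vitamin D and retinoids. In the liver lobule, many drug-oxidizing P450 enzymes are strongest near the central vein.

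By these roles, 10 members were foreign-compound enzymes, 9 were fatty acid and eicosanoid enzymes, 4 were steroid hormone enzymes, 3 were sterol enzymes, 5 were vitamin D and retinoid enzymes, and 4 remained. The symbols CYP3A5 and CYP4F2 each stood on 2 rows. ENSBTAG00000005450 is called the major and ENSBTAG00000012201 the minor CYP3A5 row, and ENSBTAG00000015735 is called the major and ENSBTAG00000025748 the minor CYP4F2 row. In the RefSeq gene table of a later assembly (ARS-UCD2.0), which held 27 of the 33 member symbols as such, CYP3A4, CYP3A5 and CYP4F2 are synonyms of 2 genes each, and 4 protein-coding CYP3A genes follow each other with 0 other coding genes between them. Only reads with a unique place in the genome were counted, so reads that fit near-identical copies equally can be missing. Counts of rows of the CYP2C, CYP3A, CYP4A and CYP4F subfamilies are therefore uncertain.

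Foreign-compound enzymes made up most of the member counts. CYP2E1, which oxidizes ethanol, ketone bodies and small solvents, had a mean of 116769 normalized counts (reads scaled by edgeR's TMM factors to the mean library size) and held 46.9% of all member counts. The major CYP3A5 row followed with 46217, CYP2C19 with 25377 and the minor CYP3A5 row with 12158. These 4 rows held 80.5% of the member counts. Counts were not divided by transcript length and thus do not rank transcript abundance between genes. All members together took 1.25% ± 0.161 (SD, n = 8) of the reads in CONHC, 1.15% ± 0.139 (n = 8) in CONLC, 1.23% ± 0.146 (n = 8) in GLYHC and 1.12% ± 0.251 (n = 7) in GLYLC. In single cows this share was between 0.999% and 1.56%, except in GLYLC cow 912 with 0.589%.

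**Figure D1:**
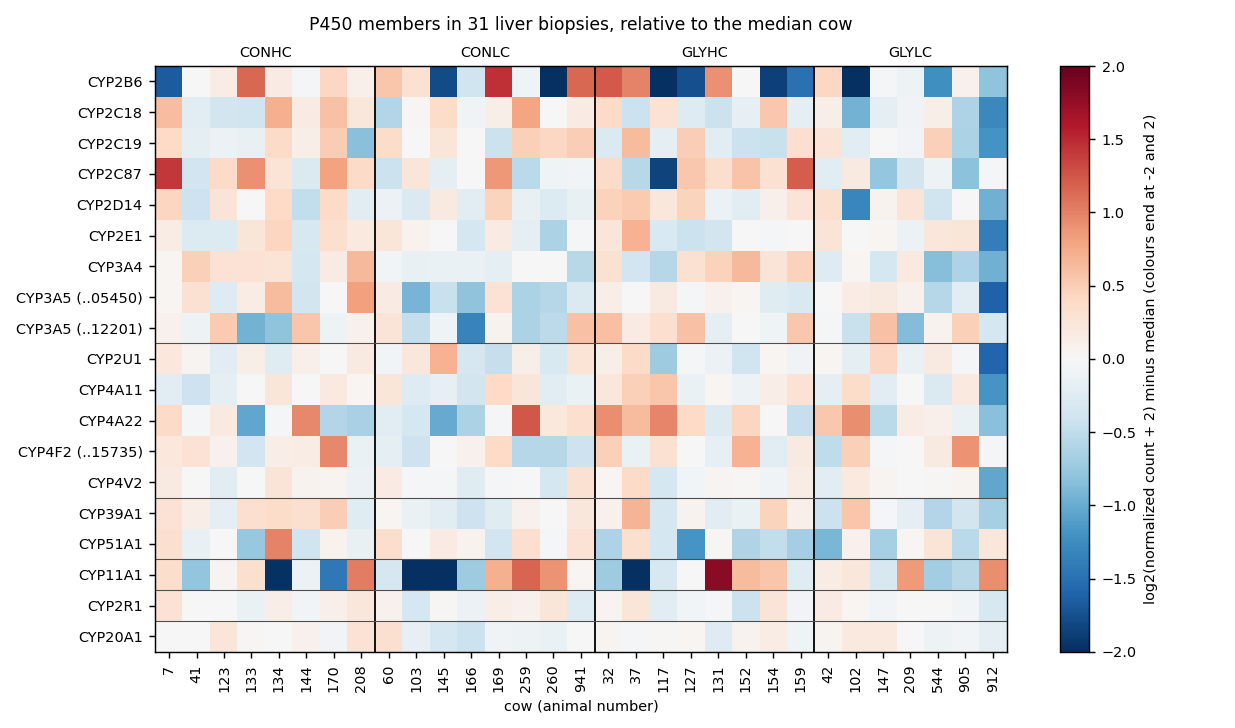
Each row is 1 of the 19 members with a mean of at least 50 normalized counts, grouped by role, and each column is 1 cow in its feeding group. Colours give log2(normalized count + 2) minus the median over the 31 cows, and the figures in parentheses are the last digits of the gene identifier. Cow 912 (GLYLC, last column) is blue in most rows, and CYP2B6 and CYP11A1 hold the darkest fields.

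GLYLC cow 912 stood apart from the other libraries. It had the lowest count of all 31 cows in 9 of the 19 members, beside 16.47% of 10338 genes with a mean of at least 50 counts. CYP2E1 had 44583 normalized counts in this cow against a median of 116747 in the other 30, and the major CYP3A5 row had 15699 against 48340. CYP4V2, a fatty acid hydroxylase, had 5387 against 11173, and CYP2U1, a hydroxylase of long-chain fatty acids, had 514 against 1576. In contrast, CYP51A1 had 4307 in this cow against 3634, and CYP11A1 had 1892 against 954. The sum of 8 intestinal epithelium markers was 14036 in this cow and at most 8754 in all others, and the sum of 8 hepatocyte markers was 2567198, the lowest of all cows, although CONLC cow 260 had 2568381. Its sum of 8 periportal markers was 115521, also the lowest, beside at least 146557 in the other cows. The sum of 6 stellate cell and fibroblast markers was 14809 in cow 912, at most 5741 in the other GLYLC cows and 46286 in CONLC cow 103. The part of these markers in the P450 counts was not tested. Several results that rest on this cow are therefore given with and without it.

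The comparison of HC with LC asked whether the concentrate proportion altered P450 transcripts. CYP3A4 rose in HC cows (adjusted p = 0.0569, edgeR), while no other tested member passed the threshold of p under 0.05 with an adjusted p under 0.1. Among all genes, 1.45% were called in this comparison, 0.679% as higher in HC. Without cow 912 these shares were 0.863% and 0.457%. DESeq2 fitted to all cows also called CYP3A4 alone among the members, beside 2.73% of all genes. CYP3A4 (ENSBTAG00000047379), whose human namesake oxidizes a wide range of drugs, had 2887 normalized counts in the lowest, 4479 in the median and 5807 in the highest CONHC cow. In CONLC these values were 2529, 3371 and 3699. GLYHC cows had 2485, 4551 and 5786, while GLYLC cows had 1909, 2893 and 4220. The groups overlapped, but 7 of 8 CONHC cows lay above the highest CONLC cow and 6 of 8 GLYHC cows lay above the highest GLYLC cow.

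Over all cows, CYP3A4 had 4383 ± 976 normalized counts in HC (SD, n = 16) and 3144 ± 664 in LC (n = 15). This was a 1.40-fold higher level (log2 fold change 0.49, SE 0.12, adjusted p = 0.0569 by edgeR's quasi-likelihood test). Within treatments the log2 fold change was 0.40 (SE 0.16, adjusted p = 0.76 by edgeR) in CON and 0.58 (SE 0.17, adjusted p = 0.16 by edgeR) in GLY cows. The difference between both, tested as an interaction, was 0.18 (SE 0.23, unadjusted p = 0.441, adjusted p = 0.999 by edgeR). Without cow 912, CYP3A4 remained called with a log2 fold change of 0.44 (adjusted p = 0.0886, edgeR). The call was kept in each of the 31 fits that left out 1 cow, with adjusted p between 0.0353 and 0.0907 (edgeR), but it was lost when an adjusted p under 0.05 was required.

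Cell type markers were compared between HC and LC in the same fits, and some of them differed. Of 6 macrophage markers, CD5L and CD68 were called higher in HC by edgeR and by DESeq2, and the sum of the list was between 9301 and 25777 in HC and between 11128 and 21668 normalized counts in LC. Of 6 stellate cell and fibroblast markers, 0 were called by edgeR and 4 had an unadjusted p under 0.05, all lower in HC, whereas DESeq2 called 1 (ACTA2). Their sum was between 2036 and 6650 in HC and between 2409 and 46286 in LC, where CONLC cow 103 was highest. Without cow 103, CYP3A4 had a log2 fold change of 0.49 (adjusted p = 0.0709, edgeR). Of 8 hepatocyte markers, 0 were called by edgeR and 2 had an unadjusted p under 0.05, both higher in HC. Of 8 markers of hepatocytes near the central vein, 0 were called by edgeR and 1 (GLUL, lower in HC) had an unadjusted p under 0.05. DESeq2 called 0 of either list, with 3 and 1 at an unadjusted p under 0.05. By both tools, 0 of 8 periportal, 5 bile duct, 6 endothelial and 6 lymphocyte markers were called and 0 had an unadjusted p under 0.05. Of 4 tested epidermis markers, KRT1 and KRT14 were called higher in HC by edgeR and 0 by DESeq2, and their list summed to at most 193 normalized counts (GLYHC cow 154). Of the 8 intestinal markers, edgeR called 4 lower in HC and DESeq2 0, and the highest cow was LC cow 912. The part of these cells in the CYP3A4 difference was not tested, and in bulk tissue fewer cells of a type cannot be told apart from less RNA per cell.

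**Figure D2:**
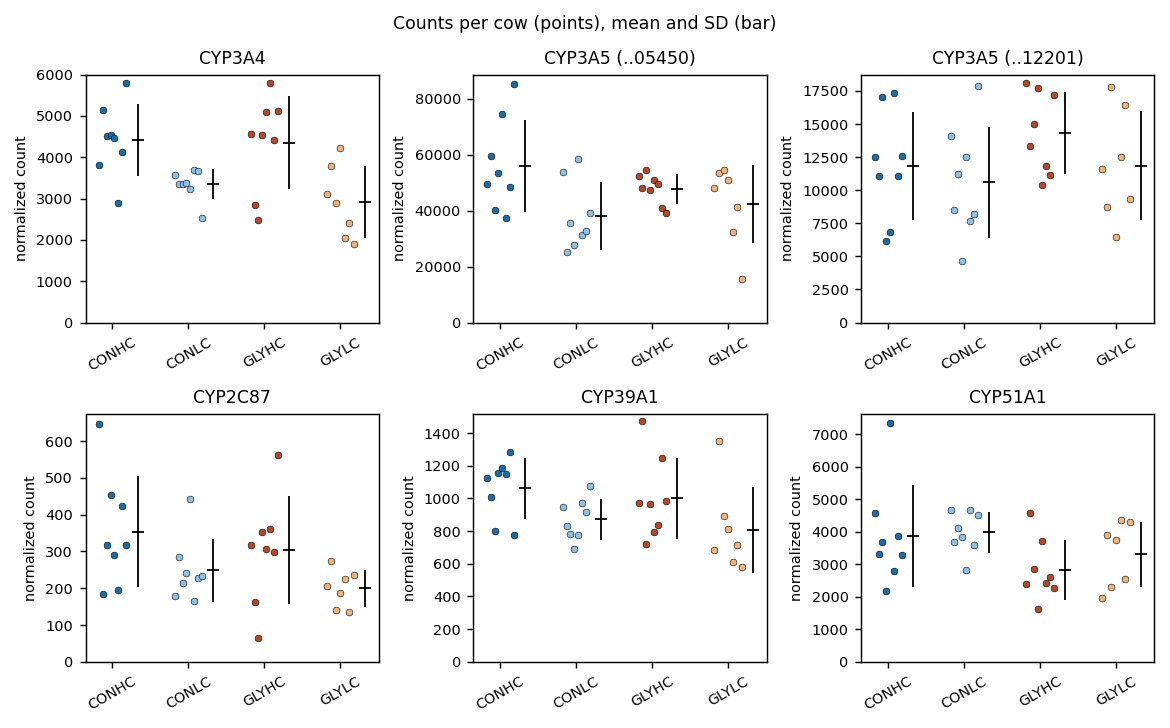
Points are single cows of the 4 feeding groups, with normalized counts on linear axes from 0, and bars give mean and SD. CYP3A4 lies higher in HC than in LC for most cows of both treatments, with HC and LC means of 4383 and 3144. For CYP3A4, 11 of 16 HC cows lie above the highest LC cow, and for the 5 other members at most 3 do. Within treatments, 6 of 8 GLYHC cows lie above the highest GLYLC cow for CYP2C87 as for CYP3A4. For CYP39A1, 5 of 8 CONHC cows lie above the highest CONLC cow.

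At an unadjusted p under 0.05, 5 of 26 members (19.2%) differed between HC and LC, beside 13.7% of all genes. Without cow 912 there were 4 (15.4% beside 11.9%), since the minor CYP4F2 row was lost. The 4 members beside CYP3A4 were partly outside the naming rule and were then chosen on their p-values. CYP2C87, a bovine CYP2C enzyme, had 185, 317 and 645 normalized counts (lowest, median and highest cow) in CONHC and 166, 230 and 443 in CONLC. The corresponding values were 65.4, 312 and 564 in GLYHC and 135, 205 and 273 in GLYLC. Its HC cows were thus both the highest and, with GLYHC cow 117, the lowest of the trial. The log2 fold change of HC against LC was 0.56 (SE 0.20, adjusted p = 0.192, edgeR) and became called without cow 117 (0.62, adjusted p = 0.0986, edgeR).

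The major CYP3A5 row had 37471, 51670 and 85218 normalized counts (lowest, median and highest cow) in CONHC and 25191, 34059 and 58648 in CONLC. GLYHC cows had 39048, 48898 and 54667, while GLYLC cows had 15699, 47940 and 54506. CONHC and CONLC overlapped, although all 8 CONHC cows exceeded the CONLC median, and the GLY groups had similar medians. The log2 fold change was 0.38 over all cows (SE 0.15, adjusted p = 0.238), 0.56 in CON (SE 0.20, adjusted p = 0.673) and 0.18 in GLY cows (SE 0.21, adjusted p = 0.78, all edgeR). Without cow 912, the value in GLY cows was 0.03 (SE 0.18). The interaction was -0.39 with this cow (SE 0.29, unadjusted p = 0.193, edgeR) and -0.53 without it (SE 0.25, unadjusted p = 0.0382), with an adjusted p of 1.0 in the latter fit (edgeR), so that it was not called but passed the unadjusted threshold without cow 912. The minor CYP3A5 row had a log2 fold change of 0.22 (SE 0.17, adjusted p = 0.62, edgeR), and its values between 4685 and 18070 overlapped in all groups.

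CYP39A1, an oxysterol hydroxylase of bile acid synthesis, had 1031 ± 214 normalized counts in HC (SD, n = 16) and 842 ± 197 in LC (n = 15). Cow values were between 724 and 1471 in HC and between 578 and 1353 in LC, so that the ranges overlapped. Its log2 fold change was 0.30 (SE 0.11, adjusted p = 0.202, edgeR), and it was called when GLYLC cow 102 was left out. The fifth was the minor CYP4F2 row, for which a single cow set the result. Its reads were between 0 and 4.27 normalized counts in 30 cows and 188 in cow 912, and the log2 fold change of HC against LC was -2.88 with this cow (SE 1.07, adjusted p = 0.21, edgeR) and 0.72 without it (SE 0.58, adjusted p = 0.689, edgeR).

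**Figure D3:**
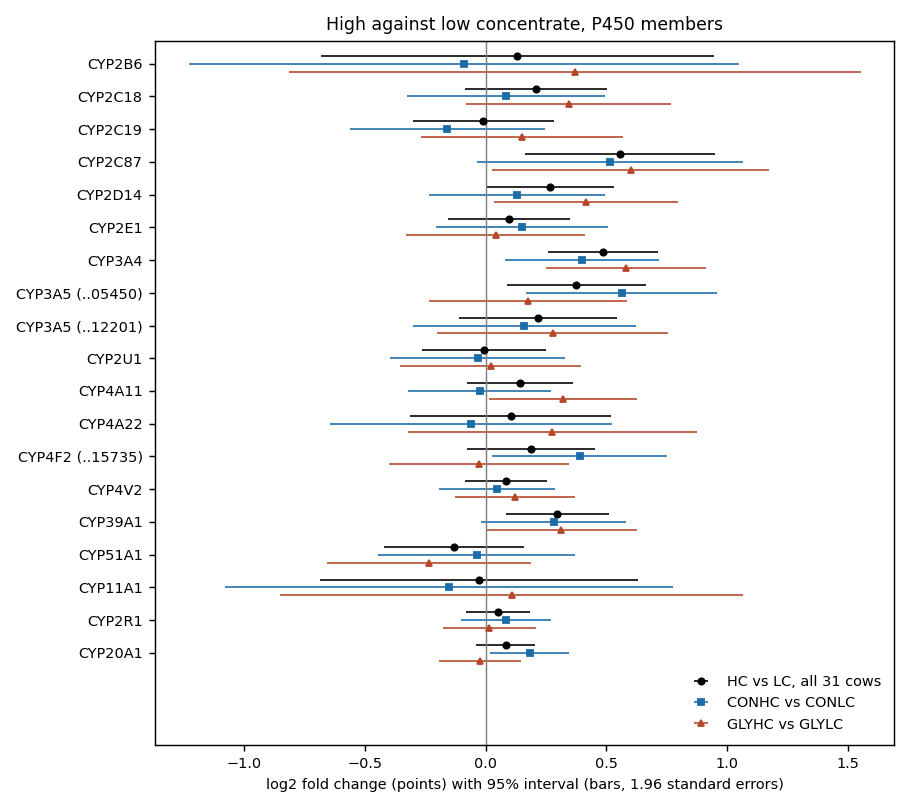
Points are log2 fold changes of HC against LC from edgeR for the 19 members with a mean of at least 50 normalized counts, over all cows (black circles), in CON cows (blue squares) and in GLY cows (red triangles), and bars are 95% intervals from the standard error. The intervals of CYP3A4 lie wholly right of 0 in all 3 comparisons. The points of several other members also lie right of 0 in all 3. Among them are CYP2C87 (0.56, 0.52 and 0.60) and CYP39A1 (0.30, 0.28 and 0.31), whose intervals cross 0 in CON cows. CYP2B6 and CYP11A1 have the widest intervals.

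The other abundant enzymes showed smaller differences. CYP2E1 had 120577 ± 28473 normalized counts in HC (SD, n = 16) and 112707 ± 26270 in LC (n = 15), which gave a log2 fold change of 0.10 with a 95% interval from -0.16 to 0.35. Without cow 912 it was 0.04 (SE 0.11). For CYP2C19, the 95% interval was -0.30 to 0.28 around -0.01, and without cow 912 the value was -0.07. CYP2D14, the bovine member of the drug-oxidizing CYP2D subfamily, had a log2 fold change of 0.27 (SE 0.13, adjusted p = 0.382, edgeR) over all cows. In GLY cows alone it was 0.42 (SE 0.19, unadjusted p = 0.0401, adjusted p = 0.371, edgeR), and without cow 912 it was 0.32 (unadjusted p = 0.11). CYP2C18 had 0.21 (SE 0.15, adjusted p = 0.586, edgeR). Altogether, 8 of the 9 tested foreign-compound enzymes had a value above 0 in HC against LC, with a median log2 fold change of 0.22, beside 46% of all genes and a median of -0.01. Without cow 912 there were again 8 of 9, with a median of 0.19. The 8 hepatocyte markers had a median log2 fold change of 0.17 and the 8 periportal markers one of 0.12 in the same comparison, whereas the 8 markers of hepatocytes near the central vein had -0.09. The 9 enzymes were measured in the same cows, so their number above 0 is description only. The part of hepatocyte transcripts in general in these P450 values was not tested.

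Fatty acid and eicosanoid enzymes had a median log2 fold change of 0.09 in HC against LC, and 5 of 8 tested were above 0. Without cow 912 the median was 0.06 and 6 of 8 were above 0. With all cows, edgeR called 0 of these enzymes, and 1, the minor CYP4F2 row, had an unadjusted p under 0.05. CYP4A11, a fatty acid hydroxylase induced through PPARA, had 9439 ± 1690 normalized counts in HC (SD, n = 16) and 8523 ± 2035 in LC (n = 15). The log2 fold change was -0.03 (SE 0.15) in CON and 0.32 (SE 0.16, adjusted p = 0.399, edgeR) in GLY cows, where it was 0.20 (SE 0.13) without cow 912. CYP4A22, a paralog, had 0.10 (SE 0.21) over all cows. CYP4V2 had the narrowest interval of the members of this class with at least 50 counts, from -0.09 to 0.25 around 0.08. Without cow 912 its log2 fold change was 0.03. The major CYP4F2 row, a hydroxylase of leukotriene and vitamin K side chains in humans, had 1832 ± 554 in CONHC and 1398 ± 352 normalized counts in CONLC (SD, n = 8 each). Its log2 fold change was 0.39 in CON (SE 0.18, unadjusted p = 0.043, adjusted p = 0.808, edgeR) and -0.03 in GLY cows (SE 0.19), and the interaction was -0.42 (SE 0.26, unadjusted p = 0.127, edgeR).

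Within CON cows, edgeR called 0 of 26 members between HC and LC, as it called 0.0% of all genes. At an unadjusted p under 0.05 there were 4 members (CYP3A4, CYP20A1, the major CYP3A5 row and the major CYP4F2 row), all higher in CONHC, which were 15.4% of the tested members beside 5.96% of all genes in either direction and 2.71% higher in CONHC. DESeq2 fitted to all cows also called 0 (0.17% of all genes), with 4 at an unadjusted p under 0.05 (5.86% of all genes). Cow 912 enters the common spread of this fit, and without it edgeR called 0 members beside 0.0444% of all genes, with the same 4 at an unadjusted p under 0.05 beside 7.16%. Within GLY cows, edgeR called 0 members beside 0.201% of all genes with cow 912 and 0.0% without it. Here 5 members had an unadjusted p under 0.05 (19.2% beside 12.5%), namely CYP3A4, CYP2C87, CYP2D14 and CYP2S1 with higher and the minor CYP4F2 row with lower values in GLYHC. Without cow 912 there were 3 (11.5% beside 8.37%), because CYP2D14 and the minor CYP4F2 row were lost. DESeq2 fitted to all cows called CYP3A4 in GLY cows, beside 0.898% of all genes, and DESeq2 fitted to these 2 groups alone called 0 members, beside 0.559% of all genes.

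GLY residues were compared with CON within each concentrate proportion and over all cows. None of the 26 tested members passed the threshold in any of these comparisons or in the interaction with edgeR or with DESeq2. Called by edgeR were 0.0% of all genes over all cows, 0.0% within HC, 0.0628% within LC and 0.0% for the interaction, and without cow 912 all 4 shares were 0.0%. At an unadjusted p under 0.05 edgeR gave 3 members over all cows (11.5% beside 3.92% of all genes), 1 within HC (3.85% beside 2.92%), 2 within LC (7.69% beside 5.65%) and 2 for the interaction (7.69% beside 4.21%). Without cow 912 only CYP51A1 was left over all cows (3.85% beside 2.76%) and within HC (3.85% beside 3.52%). Within LC, CYP2C18 and the minor CYP4F2 row were lost and CYP2S1 (-1.0, SE 0.48, unadjusted p = 0.0462) and the major CYP4F2 row (0.42, SE 0.20, unadjusted p = 0.0446) took their place (7.69% beside 3.07%), both with an adjusted p of 1.0 (edgeR). For the interaction there were again 2 (7.69% beside 3.47%), CYP2S1 and the major CYP3A5 row. DESeq2 fitted to all cows called 0.00628%, 0.0%, 0.0251% and 0.00628% of all genes in these 4 comparisons. At an unadjusted p under 0.05 it gave 2, 1, 1 and 1 members, beside 3.32%, 2.91%, 4.71% and 4.03% of all genes. The within-HC and within-LC comparisons share cows with the comparison over all cows.

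CYP51A1, the lanosterol demethylase of cholesterol synthesis, had 2177, 3502 and 7340 normalized counts (lowest, median and highest cow) in CONHC and 2813, 3980 and 4663 in CONLC. These values were 1622, 2520 and 4570 in GLYHC and 1957, 3754 and 4371 in GLYLC. The groups overlapped over most of their range, and 4 of 15 GLY cows lay above the CON median. The log2 fold change of GLY against CON was -0.37 over all cows (SE 0.15, unadjusted p = 0.0185, adjusted p = 1.0, edgeR), -0.46 within HC (SE 0.21, adjusted p = 1.0, edgeR) and -0.27 within LC (SE 0.22, adjusted p = 0.99, edgeR). Leaving out cow 912 gave -0.41 over all cows. CONHC cow 134 with 7340 stood apart from the next CONHC cow with 4568. The values of GLY against CON without cow 134 are not given here.

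CYP2C18 had 2283 ± 649 normalized counts in CON (SD, n = 16) and 1825 ± 574 in GLY cows (n = 15), with cow values from 1338 to 3457 in CON and from 825 to 2917 in GLY. Its log2 fold change was -0.34 (SE 0.15, unadjusted p = 0.0315, adjusted p = 1.0, edgeR) with cow 912 and -0.28 (unadjusted p = 0.0589) without it. The third member at this unadjusted threshold was the minor CYP4F2 row with its single high cow. For CYP3A4 the log2 fold change of GLY against CON was -0.11 with a 95% interval from -0.34 to 0.12, for CYP2E1 it was -0.02 (-0.27 to 0.24), and for the major CYP3A5 row it was -0.04 (-0.33 to 0.25). CYP2B6 had -0.39, and its interval from -1.21 to 0.43 was the widest among members with at least 50 counts. In 15 of the 26 tested members the value was below 0 (median -0.04, all genes 0.0037), and without cow 912 there were 13 on each side.

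In the interaction, CYP2S1, a CYP2 enzyme known mainly from epithelia, was named after its values were seen. The group means ran in opposite directions. GLYHC cows had 12.7 ± 6.65 normalized counts (SD, n = 8) against 5.84 ± 3.93 in GLYLC (n = 7), whereas CONHC had 6.83 ± 3.80 and CONLC 9.59 ± 6.88 (n = 8 each). The interaction was 1.54 on the log2 scale (SE 0.65, unadjusted p = 0.0251, adjusted p = 0.999, edgeR), and at most 23 reads were counted in a single cow. Cow 912 was the highest GLYLC cow, with 12.9 normalized counts beside at most 8.35 in the others. Without it the interaction was 1.86 (SE 0.65, unadjusted p = 0.00783, adjusted p = 1.0, edgeR), and GLYHC lay above GLYLC by 1.37 on the log2 scale (SE 0.48, adjusted p = 0.46, edgeR). The minor CYP4F2 row, again through cow 912, was the other member. The sum of the epidermis markers had a mean of 67.5 normalized counts in GLYHC, 19.4 in GLYLC, 16.5 in CONHC and 16.5 in CONLC. Its highest cow was GLYHC cow 154 with 193, where CYP2S1 had 10.2. CYP2S1 was highest in GLYHC cow 117 with 25.3, which also had the highest intestinal sum in GLYHC (8754). The part of such cells in the CYP2S1 values was not tested.

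Several members differed widely between cows of the same group. The median SD within groups was 0.41 on the log2 scale over the 19 members and 0.25 over 10338 genes of at least 50 counts. CYP2B6, a drug-oxidizing enzyme that responds to CAR, had the highest SD (1.47) and lay above 99.6% of 272 genes of similar count. Its lowest cow (GLYHC cow 117) had 137 and its highest (CONLC cow 169) had 13554 normalized counts, a 99.1-fold range. In CONHC the lowest, median and highest cow had 1546, 5392 and 10983, in CONLC 518, 5354 and 13554, in GLYHC 137, 3342 and 11550, and in GLYLC 1148, 4571 and 6554. High and low cows thus occurred in each group. GLYHC held 4 cows between 137 and 1756 and 4 cows between 4928 and 11550. The log2 fold change of HC against LC was 0.13 with a 95% interval from -0.68 to 0.95, so that a 1.40-fold difference as in CYP3A4 lay inside it.

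CYP11A1 starts steroid hormone synthesis by cleaving the cholesterol side chain in adrenal, gonad and placenta. It had reads in all 31 cows, with 206 to 3464 normalized counts (16.8-fold) and an SD of 1.07, above 98.7% of 914 genes of similar count. Its lowest, median and highest values were 249, 975 and 2012 in CONHC, 213, 903 and 2220 in CONLC, 206, 913 and 3464 in GLYHC, and 610, 1098 and 1892 in GLYLC. The medians were close and the groups overlapped throughout. Neither concentrate (log2 fold change -0.03, SE 0.34, adjusted p = 0.988, edgeR) nor GLY (0.24, SE 0.34, adjusted p = 1.0, edgeR) gave a call. The other steroid hormone enzymes among the members were close to absent, with 12 reads of CYP17A1, 8 of CYP21 and 0 of CYP19A1 (aromatase) over all cows. Enzymes of this pathway outside the P450 family were not examined.

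CYP2C87 (SD 0.63), CYP4A22 (0.62) and the minor CYP3A5 row (0.51) followed. At the other end were CYP20A1 (0.16), an orphan P450, and CYP2R1 (0.19), which hydroxylates vitamin D in the liver. CYP2R1 was between 234 and 386 normalized counts in all 31 cows, with log2 fold changes of 0.05 (SE 0.07) for HC against LC and -0.05 (SE 0.07) for GLY against CON. CYP20A1 was between 405 and 679. Its log2 fold change was 0.18 in CON cows (SE 0.08, unadjusted p = 0.0382, adjusted p = 0.808, edgeR) and -0.02 in GLY cows (SE 0.09).

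**Figure D4:**
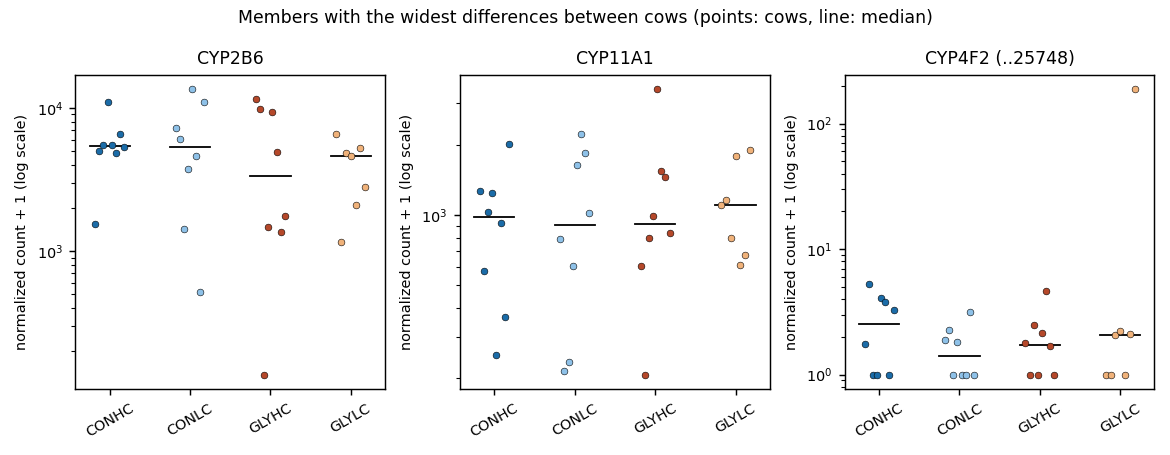
Points are single cows, lines are group medians, and the log axes give normalized count + 1. CYP2B6 runs from 137 to 13554 and CYP11A1 from 206 to 3464 without separation of the groups, whereas the minor CYP4F2 row (ENSBTAG00000025748) is near 0 in all cows but cow 912 with 188.

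Members of 1 subfamily were compared in 7 pairs over 31 cows after subtraction of the group means (two-sided permutation test), and no pair had an adjusted p under 0.05. The highest value was that of CYP3A4 with the major CYP3A5 row (Pearson's r = 0.41, permutation p = 0.0199, adjusted p = 0.124, Spearman's rho = 0.32, permutation p = 0.083, adjusted p = 0.235, n = 31). It was 0.46 without the 2 cows farthest from the median of CYP3A4 and 0.28 without cow 912. CYP3A4 and the minor CYP3A5 row had r = -0.33 (permutation p = 0.0735, adjusted p = 0.129) and rho = -0.32 (permutation p = 0.0819, adjusted p = 0.235). CYP4A11 and CYP4A22 had r = 0.37 (permutation p = 0.0412, adjusted p = 0.124) and rho = 0.27 (permutation p = 0.14, adjusted p = 0.246), with r = 0.25 without cow 912. CYP2C18 and CYP2C19 had r = 0.35 (permutation p = 0.0529, adjusted p = 0.124), with 0.20 without cow 912. The remaining pairs had r between -0.06 and 0.12.

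The receptors were set beside 5 foreign-compound enzymes in the same way, in 10 pairs chosen after the values of the members were seen. NR1I2 and the major CYP3A5 row had r = 0.54 (permutation p = 0.00197, adjusted p = 0.0127) and rho = 0.43 (permutation p = 0.0167, adjusted p = 0.0836, n = 31), and NR1I3 and CYP2C19 had r = 0.52 (permutation p = 0.00255, adjusted p = 0.0127) and rho = 0.45 (permutation p = 0.0107, adjusted p = 0.0836). Without cow 912 these r values were 0.29 and 0.32, and without the 2 cows farthest from the receptor's median they were 0.36 and 0.42. CYP2B6 had r = 0.26 with NR1I3 (permutation p = 0.159, adjusted p = 0.265) and rho = 0.11 (permutation p = 0.569, adjusted p = 0.812). CYP3A4, the called member, had r = 0.02 with NR1I2 (permutation p = 0.923, adjusted p = 0.923, rho = -0.06 with permutation p = 0.747) and r = 0.12 with NR1I3 (permutation p = 0.509, adjusted p = 0.566, rho = -0.08 with permutation p = 0.687), and without cow 912 these r values were -0.21 and -0.14. In the remaining 5 pairs r was between 0.13 and 0.34, with adjusted permutation p between 0.201 and 0.566. The adjusted Spearman p of the NR1I2 pair with the major CYP3A5 row and of the NR1I3 pair with CYP2C19 was thus over 0.05, and their r was lower without cow 912.

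Of 23 electron donors, heme enzymes and regulators of P450 genes listed, 21 were found and tested. By edgeR and by DESeq2, 0 were called in each of the 7 comparisons. For HC against LC, POR, the reductase that passes electrons to microsomal P450 enzymes, had a log2 fold change of 0.24 (SE 0.10, unadjusted p = 0.0203, adjusted p = 0.256, edgeR). The bile acid receptor NR1H4 had -0.21 (SE 0.10, unadjusted p = 0.0401, adjusted p = 0.332, edgeR). NR1I2 (0.13, SE 0.08) and NR1I3 (0.03, SE 0.08) had an unadjusted p over 0.05. By edgeR and by DESeq2, 2 of 21 had an unadjusted p under 0.05 here, beside 13.7% and 13.0% of all genes. For GLYHC against GLYLC, edgeR had 3 higher and 1 lower in GLYHC at this level (CYB5R3, NR1H4, POR and RXRA), beside 12.5% of all genes. DESeq2 had 4, beside 12.1%. For GLY against CON over all cows, edgeR had 0 and DESeq2 had 1 of 21 at this level, beside 3.92% and 3.32% of all genes. The list summed to between 54626 and 77322 normalized counts in 30 cows and to 41725 in cow 912. Results of this list without cow 912 are not given here. Without this cow, 8.37% of all genes had an unadjusted p under 0.05 for GLYHC against GLYLC (edgeR). Of the 8 CYP genes left out, edgeR and DESeq2 called 1 (CYP1A1, lower in HC) for HC against LC, beside 1.45% and 2.73% of all genes. Both called 0 in the other comparisons. At an unadjusted p under 0.05, edgeR had 2 higher and 2 lower in HC and DESeq2 had 4, beside 13.7% and 13.0% of all genes. Within CON cows edgeR had 1 and DESeq2 had 4, beside 5.96% and 5.86%. Within GLY cows each had 1, beside 12.5% and 12.1%.

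The remaining members were little or not detected. Tested members with a mean under 50 normalized counts were the minor CYP4F2 row, CYP4B1, CYP4F22, CYP26B1, CYP27B1, CYP27C1 and CYP2S1, with 23 to 599 reads over all cows. CYP26B1, which degrades retinoic acid, had 446 reads in all, and CYP27B1, which activates vitamin D in the kidney, had 31. Under 20 reads over all cows were found for CYP24A1, CYP17A1, CYP4X1, CYP21, CYP46A1 and CYP26C1, with between 1 and 14 reads, and 0 reads were found for CYP19A1, CYP2F1 and CYP2W1. For CYP4X1, 8 of 10 reads came from CONHC cow 170. At this depth no difference between groups was detectable for these 9 genes.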

How the data were processed

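RNA of liver biopsies was sequenced from TruSeq stranded mRNA libraries. The authors checked and trimmed reads with FastQC and Trim Galore, aligned them with HISAT2 2.1.0 to UMD3.1 and counted them per gene with HTSeq 0.8.0, and they deposited these raw counts. Whether counting used the strand is not given in the sources used here. The authors' second table, counts scaled by 1 DESeq2 size factor per cow, was not used. Groups came from the labels, and all 31 columns matched 1 cow each.

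Counts were tested with edgeR 4.0.16 in R 4.3.3 (TMM, quasi-likelihood F test) on 15916 genes with at least 20 reads over all cows, in 1 model of 4 groups, and in additive models of CFP and treatment for comparisons over all cows. Benjamini-Hochberg adjustment ran over all genes, and a gene was called at p under 0.05 with adjusted p under 0.1. The study used DESeq2, which is an alternative here (1.42.0). SE was derived from the log2 fold change and its F value, and 95% intervals are normal intervals from it. Correlations used log2(normalized count + 2) and 100000 permutations. The script was tested on simulated counts. p-values cover differences between cows of 1 biopsy each, and no 2 libraries of a group agreed within sampling noise (105 pairs).

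Named were members called in any comparison, the 2 highest and 2 lowest log2 fold changes per comparison among members with at least 50 counts, members with at least 5000 counts, and symbols on several rows. Members and lists were chosen with earlier results of these data known. Alternatives were RLE and upper-quartile normalization, other filters, a robust fit, DESeq2, only the 2 compared groups, an adjusted p under 0.05 and each cow left out. No sequences or coordinates are given, since no genome of this build was used here.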

Additional observations from a re-analysis of the deposited data

Results flagged for a closer look

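Among 64 groups of 7 or 8 cows (16 named members in 4 groups), 9 held a cow whose gap to its nearest neighbour exceeded Dixon's 95% critical value. For normally distributed values, chance gives about 1 in 20. These gaps were taken on untransformed normalized counts, so this rate does not apply as such and the number of groups is description only. Cow 912 was such a cow in GLYLC for CYP2E1 (lowest, 44583 normalized counts) and the minor CYP4F2 row (highest, 188). High single cows were GLYHC cow 131 for CYP11A1 (3464), CONLC cow 169 for CYP2C87 (443), CONLC cow 259 for CYP4A22 (395), CONHC cow 170 for the major CYP4F2 row (3079), CONHC cow 134 for CYP51A1 (7340) and GLYHC cow 152 for the minor CYP4F2 row (3.63, from few reads). CONLC cow 941 was lowest for CYP3A4 (2529). Apart from cow 912, each of these cows stood apart in 1 member.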

How the results depend on the processing

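CYP3A4 was called for HC against LC with each normalization, filter and tool run and lost when an adjusted p under 0.05 was required, where 0 members were called. With 1 cow left out, its log2 fold change was between 0.44 and 0.54, and members called for HC against LC were between 1 and 2 (CYP2C87 was added without GLYHC cow 117 and CYP39A1 without GLYLC cow 102). Members called for GLYHC against GLYLC were then between 0 and 2, for GLYLC against CONLC between 0 and 1, and in the other comparisons 0. The added calls were CYP3A4 (without GLYLC cow 209) and the minor CYP4F2 row (without CONLC cow 260 or any single GLYLC cow other than 912). For GLYHC against GLYLC, RLE normalization gave 1 call (the minor CYP4F2 row) and DESeq2 on all cows gave 1 (CYP3A4). The minor CYP4F2 row had a log2 fold change for HC against LC of 0.97 in DESeq2 on all cows (no adjusted p given), and of -3.29 to 0.72 with 1 cow left out, where cow 912 reversed it. It had no value under filterByExpr, which removed it. Signs also turned with 1 cow left out for values near 0, namely CYP11A1 (-0.23 to 0.10), CYP2B6 (-0.0081 to 0.28) and CYP2C19 (-0.072 to 0.042). Apart from the fits without a cow, 54 other recomputed counts of calls and 109 other log2 fold changes kept their direction and side of the threshold. Members with few reads, and CYP2B6 and CYP11A1 with their spread between cows, allow only large differences to be detected. No paired analysis was possible because the groups share no replicate number.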
